A study of Mus musculus with 17 samples.

Results

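The very long genes of the mouse genome were examined for accessible chromatin along their bodies, in ATAC-seq peaks of neurons of the nucleus accumbens. ATAC-seq inserts sequencing adapters into open DNA with a transposase, so that a peak marks a stretch where DNA was accessible. Overlapping peaks of all 17 libraries on chromosomes 1 to 19 were merged, and 176316 regions called in at least 2 libraries were kept. Of these, 14996 (8.51%) lay inside a protein-coding gene body of at least 500 kb and more than 10 kb from any annotated transcription start site (TSS). These regions fell in 217 of 218 such genes. The same rule in genes of 50 kb to under 500 kb gave 35660 regions in 4569 genes, which served for comparison and are called shorter genes here.

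All mice were C57BL/6 (C57BL/6J in the methods of the study), 52 to 54 days old, and every library held NeuN+ nuclei, sorted by fluorescence with an antibody to this neuronal protein, from the nucleus accumbens of both sides, pooled from 3 animals. Cocaine animals received 10 mg/kg by intraperitoneal injection 1 h before sacrifice, and control animals received no cocaine and served as the baseline. The study describes no injection of controls, so the injection and the 1 h wait cannot be told apart from cocaine in any comparison. Of the 6 groups, the cocaine and control groups of females in diestrus and of females in proestrus had 3 libraries each, as had the male controls, and the male cocaine group had 2. Diestrus is the stage of the estrous cycle with low estrogen and proestrus the stage with high estrogen. Pools of different animals formed the replicates, and p-values measure the spread between these pools.

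Genes with very long bodies are, as a class, enriched among genes used by neurons. Many encode cell adhesion molecules, synaptic scaffolds, ion channels and RNA-binding proteins, and most of their length is intron. Their introns can hold enhancers, which are stretches that transcription factors bind and that appear as accessible chromatin. Some of the genes also coincide with common fragile sites, places where chromosomes break easily when replication is slowed.

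The following 151-base windows on the + strand of GRCm38 (mm10), centred on a summit, show regions named below. The first 4 lie in regions that were called in all cocaine libraries and no control library of diestrus and again of proestrus, and that held the AP-1 motif, the binding sequence of Fos and Jun proteins. Capitals mark AP-1 (TGAGTCA on either strand), the E-box CAGATG on either strand and the MEF2 motif. The next 3 lie in regions that went the other way in both female stages. The last 3 lie in the region with the highest mean enrichment among those called in all libraries (Mdga2), in a region of Rbfox1 that no proestrus cocaine library had, and in a region called only in the male controls (Ctnna3). None of the 10 regions overlapped a protein-coding exon, so all are intronic.
Immp2l chr12:41949886-41950036: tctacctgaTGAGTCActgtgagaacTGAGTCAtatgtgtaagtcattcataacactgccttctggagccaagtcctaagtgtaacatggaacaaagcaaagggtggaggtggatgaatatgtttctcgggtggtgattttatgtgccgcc
Mctp1 chr13:76461516-76461666: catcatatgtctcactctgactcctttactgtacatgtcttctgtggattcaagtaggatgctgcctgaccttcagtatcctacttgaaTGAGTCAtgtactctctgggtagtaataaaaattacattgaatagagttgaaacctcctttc
Adarb2 chr13:8645833-8645983: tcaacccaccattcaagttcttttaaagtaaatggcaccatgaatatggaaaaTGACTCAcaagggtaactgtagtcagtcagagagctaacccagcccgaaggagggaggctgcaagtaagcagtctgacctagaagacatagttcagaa
Cdh18 chr15:23105107-23105257: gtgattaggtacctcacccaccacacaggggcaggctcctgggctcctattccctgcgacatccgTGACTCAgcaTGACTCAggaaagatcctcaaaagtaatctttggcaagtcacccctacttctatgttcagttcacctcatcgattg
Grm5 chr7:87872553-87872703: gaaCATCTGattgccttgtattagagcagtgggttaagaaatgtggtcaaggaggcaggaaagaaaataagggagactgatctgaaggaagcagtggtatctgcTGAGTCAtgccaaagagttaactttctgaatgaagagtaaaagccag
Csmd1 chr8:17296152-17296302: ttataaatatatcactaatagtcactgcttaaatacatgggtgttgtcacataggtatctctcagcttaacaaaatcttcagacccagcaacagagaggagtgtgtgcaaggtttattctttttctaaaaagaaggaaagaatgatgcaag
Cacna2d3 chr14:29160316-29160466: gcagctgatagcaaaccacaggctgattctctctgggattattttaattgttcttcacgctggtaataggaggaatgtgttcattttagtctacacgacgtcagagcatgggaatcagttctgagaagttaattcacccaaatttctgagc
Mdga2 chr12:67059403-67059553: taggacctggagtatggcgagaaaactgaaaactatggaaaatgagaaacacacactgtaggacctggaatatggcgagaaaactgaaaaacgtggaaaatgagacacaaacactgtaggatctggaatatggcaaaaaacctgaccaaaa
Rbfox1 chr16:6430075-6430225: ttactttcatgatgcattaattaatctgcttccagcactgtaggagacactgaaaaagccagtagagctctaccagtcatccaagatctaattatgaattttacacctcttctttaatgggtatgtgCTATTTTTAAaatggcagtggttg
Ctnna3 chr10:64215753-64215903: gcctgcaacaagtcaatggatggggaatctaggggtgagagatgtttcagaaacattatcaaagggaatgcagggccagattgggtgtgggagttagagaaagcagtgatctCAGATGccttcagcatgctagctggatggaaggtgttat

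Motifs were searched in the 100 bp to either side of a summit. AP-1 was found in 1416 of the long-gene regions (9.44%), against 9.35% of all autosomal regions. The E-box CAGATG was found in 16.9% and 16.8% respectively, and the cyclic AMP response element TGACGTCA in 0.187% and 0.439%. The MEF2 motif stood in 7.48% of the long-gene regions, 6.50% of those in shorter genes and 5.85% of all regions. A match describes the letters of a window and does not show that a factor was bound.

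Before the comparisons, the libraries were checked over the long-gene regions. They held 74532 to 155025 autosomal peaks, and the 2 male cocaine libraries had the fewest, 86626 and 74532. Read totals were not among the data used here, so a region without a peak was read as not called at the depth of its library. The Jaccard index (regions called in both libraries over regions called in either) averaged 0.582 over 16 pairs from the same group and 0.476 over 120 other pairs. Diestrus cocaine library 1 stood apart, with a mean index of 0.589 to the diestrus controls and 0.514 to the other diestrus cocaine libraries, and results that rest on it are also given without it. Promoter peaks (within 1 kb of a TSS) of 5 of 5 neuronal markers and of 7 of 8 medium spiny neuron markers were present in 17 of 17 libraries, with Rarb at 0. No endothelial marker and none of the microglial markers other than P2ry12 had a promoter peak, and P2ry12 had one in 4 cocaine libraries and no control library. Of 5 astrocyte markers, Gfap had a promoter peak in 9 control and 7 cocaine libraries and Slc1a3 in 2 cocaine libraries (diestrus 3 and proestrus 2), with Aqp4, Aldh1l1 and Gja1 at 0. In the oligodendrocyte lineage Mbp had one in all 17 libraries, Olig2 in the same 2 cocaine libraries and Mog and Mag in proestrus cocaine library 2 alone, with Pdgfra and Cspg4 at 0. Among interneuron markers Kit had one in 5 of 9 control and 8 of 8 cocaine libraries, Sst and Npy in 1 control and 1 cocaine library each, and Chat and Pvalb in none. The part of these markers in the results was not tested.

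A difference in the marker list of cortical excitatory neurons ran along with treatment. Slc17a7, which encodes the vesicular glutamate transporter of these cells, had a promoter peak in 8 of 9 control libraries and in 1 of 8 cocaine libraries, which was diestrus cocaine library 1. Its fold enrichment there was 13.7. Diestrus controls had 2.32, 15.2 and 0, proestrus controls 8.55, 9.51 and 10.4, and male controls 15.9, 11.4 and 14.7. Tbr1 had a peak in 6 control and 5 cocaine libraries, and Neurod6 had one in the 3 male controls and 2 proestrus cocaine libraries. The summed fold enrichment of these 3 genes ranged from 0 to 15.2 in diestrus controls, 0 to 16.7 in diestrus cocaine, 11.9 to 12.9 in proestrus controls, 3.96 to 5.66 in proestrus cocaine and 22.4 to 26.5 in male controls, and was 0 in both male cocaine libraries. Its part in the results below was not tested. In tissue pools, fewer cells of a type and less open chromatin per cell cannot be told apart.

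Long genes carried a median of 51 regions each and at most 394, in Rbfox1, which encodes a splicing factor of neurons. Their median density was 78.1 regions per Mb of the body more than 10 kb from a TSS (quartiles 42.7 and 144). Spearman's rho between length and density was -0.07 over the 218 genes, which share all libraries. Pooled over genes it was 101 per Mb over 149 Mb, against 111 per Mb over 321 Mb of shorter genes. Within single libraries the long genes had 25.3 to 55.2 called regions per Mb and the shorter genes 27.8 to 63.8, and the long genes were lower in 17 of 17 libraries, with a ratio of 0.815 to 0.923.

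**Figure D1:**
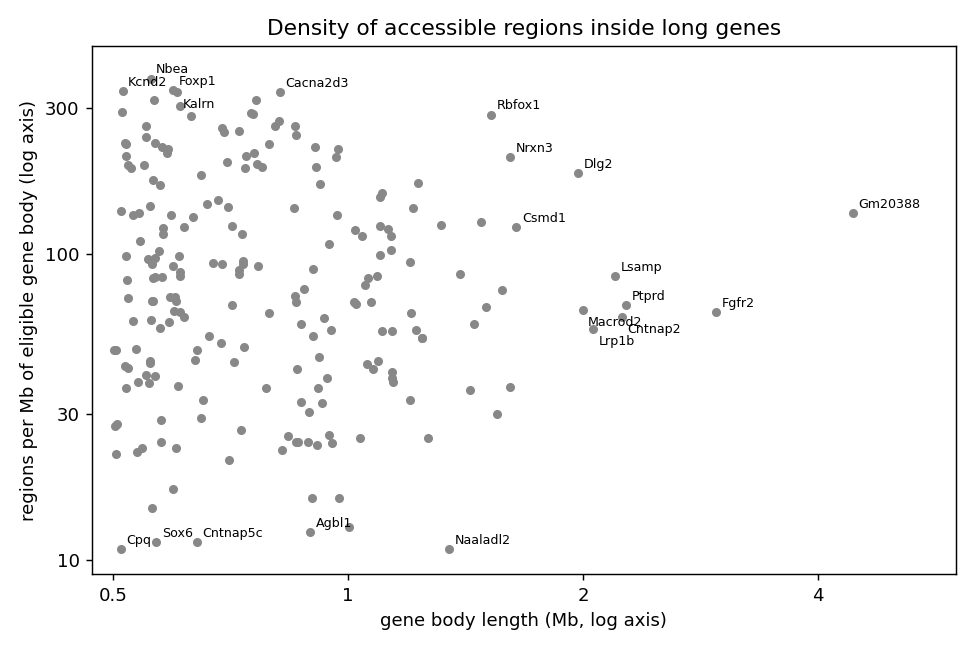
Regions per Mb of eligible gene body (more than 10 kb from any TSS; log axis) against gene body length in Mb (log axis), 1 point per gene of at least 500 kb with at least 1 region. Nbea, the densest, reaches 375 per Mb, and Cpq, the sparsest, 10.9 per Mb.

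The 10 longest gene bodies covered a range of densities. Gm20388 (chr8:119910841-124345722, 4435 kb) is a predicted gene whose body spans 71 other protein-coding genes, and it held 241 regions. Fgfr2 (chr7:130162451-133123350), a fibroblast growth factor receptor, is annotated over 2961 kb with 29 other coding genes inside, and held 97. The values of these 2 bodies therefore also describe the genes within them. Ptprd, a receptor phosphatase that organizes synapses, held 135 regions, and Cntnap2, a neurexin-like adhesion protein, held 112. Lsamp, an adhesion protein of the limbic system, held 169, the lipoprotein receptor gene Lrp1b 105 and Macrod2 115. Dlg2, the postsynaptic scaffold PSD-93, reached 184 per Mb with 252 regions. Csmd1 held 181 regions at 123 per Mb, and the presynaptic adhesion gene Nrxn3 held 294 at 207 per Mb.

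The densest genes were Nbea, a trafficking protein of synapses, with 118 regions at 375 per Mb, and Foxp1, a transcription factor of striatal neurons, with 344 per Mb. They were followed by the potassium channel gene Kcnd2 (342 per Mb), the synaptic exchange factor Kalrn (340 per Mb) and the calcium channel subunit gene Cacna2d3 (339 per Mb). At the other end stood Naaladl2 with 13 regions over 1346 kb, Cpq and Sox6 with 5 each, Cntnap5c with 7 and Agbl1 with 10, at 10.9 to 12.4 per Mb. Skint5 (chr4:113477891-113999503), a gene of skin immune selection, was the 1 long gene with no region. The dense and the sparse genes overlapped in length.

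By role, the ion channels and their partners had the highest pooled density, 200 per Mb over 13 genes and 1397 regions. Genes of cyclic nucleotide and phospholipase signalling followed with 150 per Mb over 7 genes, then axon guidance (132 per Mb, 8 genes), glutamate and GABA receptors (131 per Mb, 7 genes), postsynaptic scaffolds (123 per Mb, 9 genes) and transcription and RNA regulators (122 per Mb, 13 genes). Synaptic adhesion, the role with the most genes (29), stood at 111 per Mb with 2868 regions. Cadherins and catenins had 87.0 per Mb, large genes at fragile sites or of other roles 85.0, growth factor receptors and ligands 65.3, and the 92 genes in no role list 76.0. The gene lists were made by hand and the values describe them.

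The regions themselves differed from other regions in composition. Their median GC content was 39.7%, against 43.0% in shorter genes and 44.1% over all regions, and 3.13% overlapped a protein-coding exon, against 9.33% and 19.3%. Their median width was 608 bp, near the 625 bp of both others. The nearest TSS lay a median of 44456.5 bp away. A region was called in a median of 5 libraries, 13.4% (2002) were called in all 17, against 14.7% in shorter genes, and 37.2% in only 2 or 3. The regions called in more libraries were wider and richer in GC, from a median of 411 bp and 38.8% at 2 or 3 libraries to 1524 bp and 41.4% at 17. The AP-1 share rose along the same order from 6.17% to 16.9%. With each gene body divided into 10 equal parts, density was 107 per Mb in the part at the 5′ end, 88.0 in the ninth and 97.9 in the last.

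The most strongly enriched of the regions called in all libraries lay in Mdga2, an adhesion regulator of synapses, at chr12:67058888-67060116, with a mean fold enrichment of 34.5 (18.04 to 55.6 over the libraries). Soft-masked repeats covered 54.3% of it, against a mean of 16.4% over the long-gene regions. The study removed peaks in blacklisted regions after peak calling, and no such filter was applied here. Whether reads map to the Mdga2 region uniquely was not tested, so its enrichment may not reflect accessible chromatin. A region of Pde4d (chr13:109820233-109824816), a phosphodiesterase that degrades cyclic AMP, had a mean of 25.1. The median over the long-gene regions was 2.94.

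Calls varied between the groups. A total of 3657 regions (24.4%, against 26.1% in shorter genes) were called at least once in each of the 6 groups. In 1 group only, 1761 were called (11.7% against 10.6%). Every library of the group called 4675 regions in diestrus controls (31.2%, against 33.1% in shorter genes) and 3760 in diestrus cocaine (25.1% against 26.3%). Proestrus controls had 3591 (23.9% against 25.9%) and proestrus cocaine 4305 (28.7% against 29.997%). Male controls had 5476 (36.5% against 38.9%) and male cocaine 3003 (20.03% against 20.95%), where only 2 libraries had to call a region. In each group the share was somewhat lower in long than in shorter genes. The male controls stood out for regions called in each of their libraries and in no other group, with 528 (3.52%, against 3.19% in shorter genes). Male cocaine had 94 (0.627% against 0.418%) and diestrus controls 40 (0.267% against 0.255%). The remaining groups had 6 to 10 (0.0400 to 0.0667%, against 0.0393 to 0.0673%).

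The first comparison asked whether cocaine moved the share of a library's peaks that lay in long genes. This share was 7.68% ± 0.412 (SD, n = 3) in diestrus controls and 7.31% ± 0.253 (n = 3) in diestrus cocaine. Proestrus controls had 6.86% ± 0.216 and proestrus cocaine libraries 7.99% ± 0.642 (n = 3 each), while male controls had 7.38% ± 0.349 (n = 3) and male cocaine 6.76% ± 0.155 (n = 2). The proestrus cocaine libraries lay above all proestrus controls, the male cocaine libraries lay below all male controls, and the diestrus groups overlapped. Over all strata the difference was 0.0454 percentage points (two-sided exact permutation test within sex and stage, p = 0.87, adjusted p = 0.928 over 16 tests). Within proestrus it was 1.13 points (exact permutation p = 0.1, adjusted p = 0.533), and 0.1 is the smallest p that 3 against 3 libraries allow. None of the 16 tests passed, a family that also holds the unweighted call rates below.

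The second comparison asked whether the calls of long-gene regions moved with cocaine in another way than those of shorter genes. The percent of long-gene regions called minus the percent of shorter-gene regions called differed by 0.686 points between cocaine and control libraries, within the spread (exact permutation p = 0.491, adjusted p = 0.667). The regions of shorter genes had a higher GC content, and the mean GC content of the called long-gene regions ranged from 39.2% to 41.7% between libraries. The same difference was therefore also taken against shorter-gene regions weighted to the GC content of the long-gene regions over 10 bins. At the same GC content it was 2.22 ± 1.43 points in diestrus controls and -0.237 ± 0.763 in diestrus cocaine (SD, n = 3 each). Proestrus controls had 0.990 ± 0.302 and proestrus cocaine -1.21 ± 0.333 (n = 3 each), and male controls had 1.31 ± 0.668 (n = 3) and male cocaine -0.392 ± 0.378 (n = 2).

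By library, the values at the same GC content were 0.626, 2.63 and 3.40 in diestrus controls and -1.01, 0.517 and -0.219 in diestrus cocaine. Proestrus controls had 1.31, 0.959 and 0.704, and proestrus cocaine had -1.13, -0.923 and -1.58. Male controls had 1.92, 0.600 and 1.42, and male cocaine had -0.659 and -0.124. All 9 controls were above 0, 7 of 8 cocaine libraries were below 0, and the groups did not overlap within any stratum. The cocaine libraries lay 2.12 points lower over all strata (difference -2.12, exact permutation p = 0.0005, adjusted p = 0.008) and 2.33 lower in females (difference -2.33, exact permutation p = 0.005, adjusted p = 0.04). The difference of this effect between the sexes was 0.622 points (exact permutation p = 0.495). Adjusted p-values at the same GC content are over 16 tests, with the weighted call rates in place of the unweighted ones. They do not count the other alternatives that were tried. Without diestrus cocaine library 1 the difference over all strata was -2.00 points, and without the regions of Rbfox1 it was -1.78 (exact permutation, adjusted p = 0.016). The call in females was lost in 4 of 17 repeats that left out 1 library. It was -2.17 without diestrus cocaine library 1, -2.57 without library 2 of that group and -2.12 without diestrus control library 3 (exact permutation, adjusted p = 0.08 each), and -2.31 without diestrus cocaine library 3 (exact permutation, adjusted p = 0.12). The female difference was also not past the test with the same number of strongest peaks in every library (-1.84, exact permutation, adjusted p = 0.08) and without the regions of Rbfox1 (-1.69, exact permutation, adjusted p = 0.12).

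**Figure D2:**
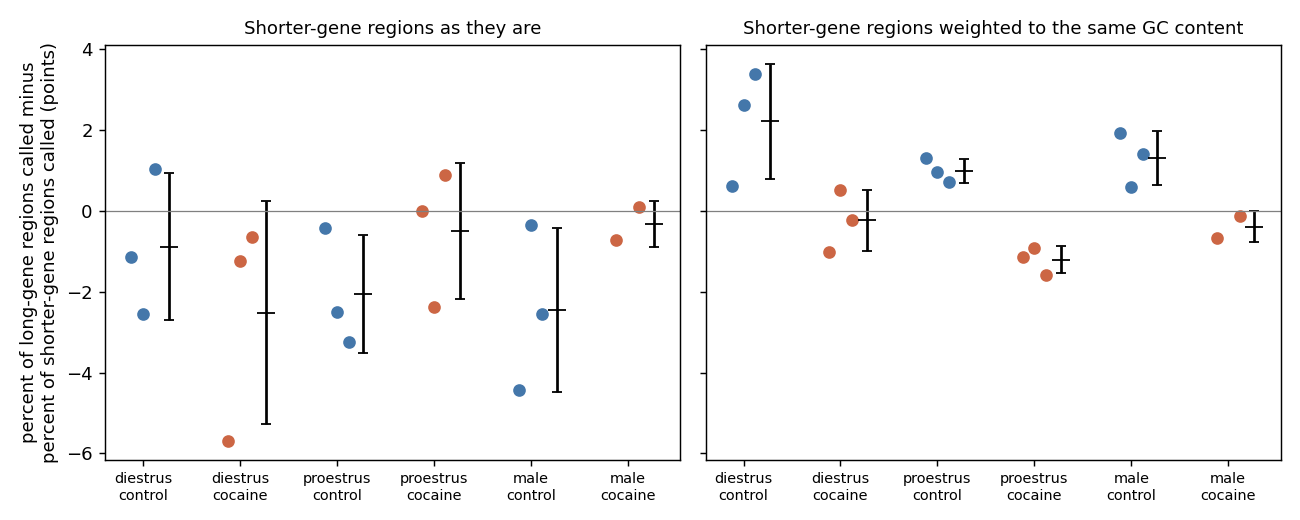
Percent of long-gene regions called minus percent of shorter-gene regions called, in percentage points, by group (points, libraries; bars, mean ± SD). Left, shorter-gene regions as they are, where cocaine and control overlap in each sex and stage; right, shorter-gene regions weighted to the same GC content, where all 9 control libraries are above 0 and 7 of 8 cocaine libraries below.

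Gene by gene, the number of called regions per 10000 called autosomal regions of a library was compared between cocaine and control libraries within sex and stage. Over all 1285 protein-coding genes with at least 10 regions, 109 (8.48%) were higher and 117 (9.11%) lower at an adjusted p of 0.05 (exact permutation test over 4000 assignments, Benjamini-Hochberg). Of the 209 long genes tested, 30 (14.4%) were higher and 22 (10.5%) lower. The 30 were higher in all 3 strata, and 20 of the 22 were lower in all 3, with Grm5 higher in males and Grid1 higher in proestrus. The ratio of cocaine to control ranged from 1.15 to 2.68 in the genes that rose (median 1.59) and from 0.577 to 0.885 in those that fell (median 0.759). The median difference was 0.12 over the long genes and -0.01 over all genes tested. With unscaled counts of called regions 0 of 1285 genes passed (359 at an unadjusted exact permutation p under 0.05), and with only peaks of a −log10 q of at least 5, 7 long genes were higher and 12 lower of 191 tested, beside 53 of 842 genes in all. These tests share libraries and count calls, not reads.

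Rbfox1 (chr16:5885355-7411526, + strand) fell by the most, by 7.75 called regions per 10000 (exact permutation, adjusted p = 0.0229). Its values were 30.3, 28.6 and 29.9 in diestrus controls and 22.6, 13.2 and 9.06 in diestrus cocaine. Proestrus controls had 21.2, 22.1 and 20.7, against 14.7, 15.2 and 14.2 after cocaine. In males the controls had 18.4, 12.2 and 15.5 and the cocaine libraries 12.7 and 13.96. Cocaine and control did not overlap in either female stage and overlapped in males, and 4 of the 6 female cocaine libraries lay within the range of the male controls, with diestrus cocaine library 1 above it and library 3 below. The highest cocaine library was diestrus cocaine library 1, the one cocaine library with a Slc17a7 promoter peak. In diestrus controls 1, 2 and 3, Slc17a7 had a fold enrichment of 2.32, 15.2 and 0 beside Rbfox1 values of 30.3, 28.6 and 29.9. The part of Slc17a7 in the Rbfox1 values was not tested. Of the 394 regions of Rbfox1, 15 were lost in diestrus and 10 in proestrus, the most of any long gene in both.

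Csmd1 (chr8:15892537-17535586, - strand), a complement regulator of synapses, fell by 2.61 per 10000 (exact permutation, adjusted p = 0.0161). It had 10.5, 12.03 and 12.6 in diestrus controls against 10.0, 7.10 and 5.41 after cocaine, and 9.91, 8.75 and 8.02 in proestrus controls against 7.30, 7.58 and 7.23. Male controls had 10.2, 8.04 and 8.36 and male cocaine 6.53 and 6.98. The groups did not overlap in any stratum. Gm20388 fell by 3.36 (exact permutation, adjusted p = 0.0436) and Kcnma1, a calcium-activated potassium channel, by 2.13 (exact permutation, adjusted p = 0.0256). Cacna2d3, a calcium channel subunit, fell by 3.00 (exact permutation, adjusted p = 0.0300) and Dlgap2, a postsynaptic scaffold protein, by 2.36 (exact permutation, adjusted p = 0.0443).

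Immp2l (chr12:41024090-41955588, + strand), a mitochondrial inner membrane peptidase at a fragile site, rose by 1.61 per 10000 (exact permutation, adjusted p = 0.0161). It had 1.77, 1.79 and 2.01 in diestrus controls and 2.16, 3.68 and 3.65 after cocaine. Proestrus controls had 1.91, 1.27 and 1.604, against 3.98, 2.94 and 3.73. Male controls had 1.70, 2.27 and 2.16 and male cocaine 3.18 and 4.04. Every cocaine library was above every control of its stratum. Gpc5, a glypican of the cell surface, and Prkg1, the cyclic GMP-dependent kinase, were the other genes that rose without overlap in any stratum. Among those that fell, Csmd1, Kalrn, Nav2 and Cdh13 did so, and Grm5 was lower without overlap in both female stages and higher without overlap in males. These genes were selected by the test on the same values, so the lack of overlap is no separate support. The count of genes without overlap over all genes tested is not given.

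Among the genes past the test, the largest rise was in Mgat4c, a glycosyltransferase, by 2.56 (exact permutation, adjusted p = 0.0229). Ctnna3, an alpha-catenin, rose by 1.98 (exact permutation, adjusted p = 0.0222) and Nkain3, a partner of the sodium pump, by 1.97 (exact permutation, adjusted p = 0.0229). Dcc, the netrin receptor of axon guidance, rose by 1.90 (exact permutation, adjusted p = 0.0321). Its values in male cocaine were 8.28 and 7.53, above all others, while the remaining libraries lay between 2.98 and 5.36. Mctp1, a calcium-binding membrane protein, rose by 1.64 (exact permutation, adjusted p = 0.0340), with overlap in males.

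**Figure D3:**
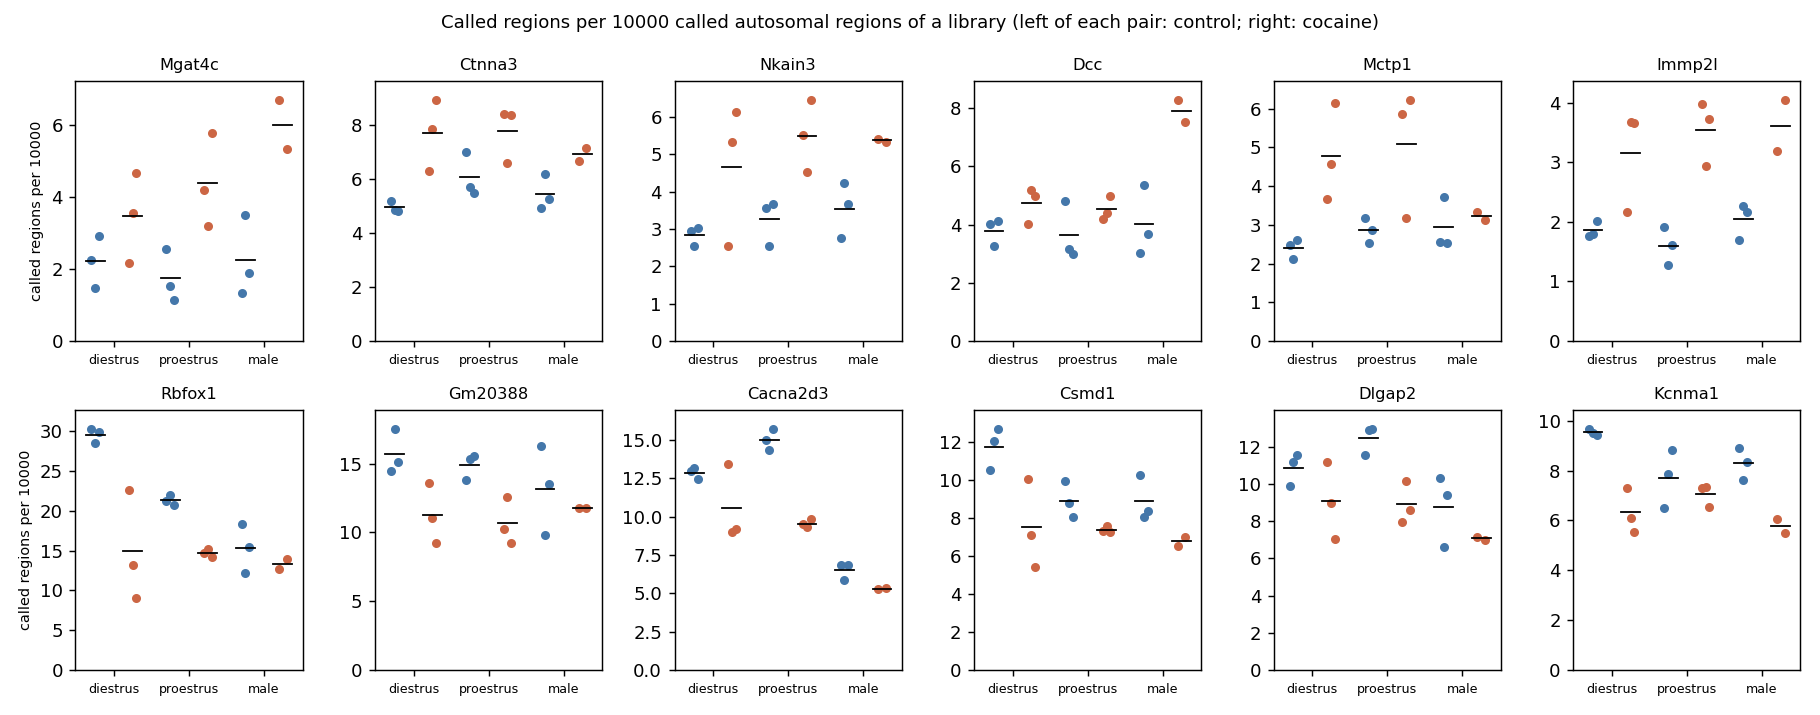
Called regions per 10000 called autosomal regions of the library for the 6 genes past the test with the largest rise (upper row) and the 6 past it with the largest fall (lower row); points are libraries, left of each pair control (blue), right cocaine (orange), and bars group means. Immp2l and Csmd1 do not overlap in any of the 3 strata, and Rbfox1 overlaps in males only.

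By role, ion channels and their partners had 2 genes that rose (Kcnip4 and Dpp10, both partners of Kv4 channels) and 3 that fell (Cacna2d3, Kcnma1 and Cacna1c, the pore of an L-type calcium channel) of 13. Transcription and RNA regulators had 1 that rose, the forkhead factor Foxp2, and 4 that fell, Rbfox1, Auts2, Camta1 and Rora, of 12 tested. Glutamate receptor genes that fell were Grm5, a metabotropic receptor, and Grid1, of 7 glutamate and GABA receptors. Synaptic adhesion had none that rose and 2 that fell of 28 tested, Ntm and Dscam. In the axon guidance list of 8 Nav2 fell, while Dcc, a guidance receptor outside the role lists, rose, and among postsynaptic scaffolds Dlgap2 fell. Growth factor receptors and ligands had 2 that rose of 6, Erbb4 and its ligand gene Nrg1, and none that fell. Ctnna3 and Cdh18 rose and Cdh13 fell among 8 cadherins and catenins. Pde4b, a cyclic AMP phosphodiesterase, and Prkg1 rose and Kalrn fell in the signalling list of 7. Large genes at fragile sites or of other roles had 6 that rose and 4 that fell of 26. Of 85 tested genes in no role list, 15 rose and 3 fell, Gm20388, Erc2 and Rasgef1b.

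The direction of change went along with base composition. The genes that rose had a median body GC content of 38.1% and those that fell 43.9%, against 40.1% over the 209. The medians of regional density were 55.4 and 150 per Mb. Across the 209 genes Spearman's rho between body GC content and the difference was -0.54, as a description over genes that share libraries. When the calls expected from each library's call rate at the GC content of each region were subtracted, 42 long genes passed, 21 in each direction, 36 of them among the 52, and 52 of 52 kept their sign. Over all genes 173 of 1285 passed on this scale. Dcc (exact permutation, adjusted p = 0.194) and Mctp1 (adjusted p = 0.118, exact permutation) were not past the test on this scale, nor were Cacna2d3 (exact permutation, adjusted p = 0.0695) and Dlgap2 (exact permutation, adjusted p = 0.0563). Without diestrus cocaine library 1 the test on the first scale gave 43 long genes higher and 24 lower, beside 316 of 1257 genes in all. Without diestrus control library 2 it gave 12 and 4, beside 67 of 1279.

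**Figure D4:**
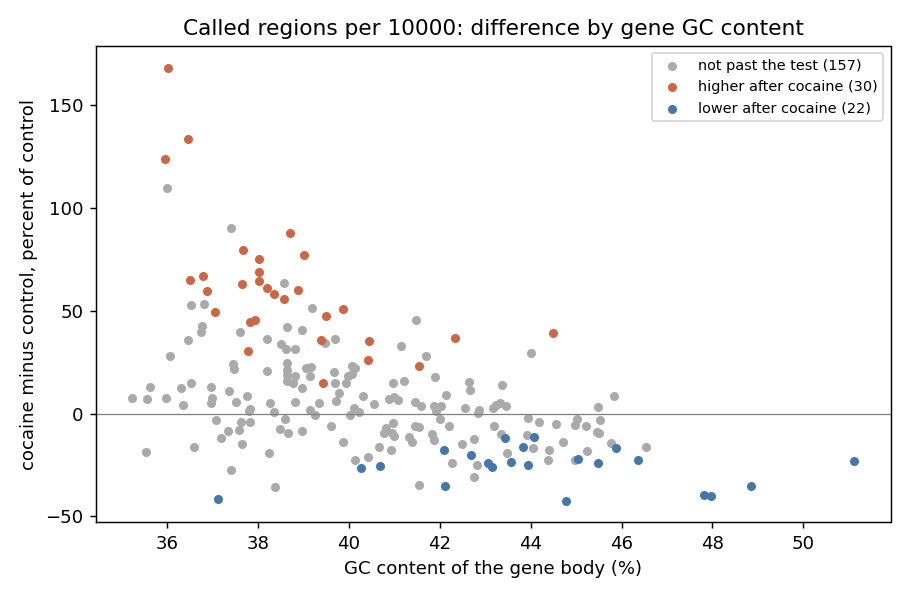
Change in called regions per 10000 after cocaine, as a percent of control, against the GC content of the gene body in percent, for the 209 long genes tested (1 point per gene; orange, 30 that rose; blue, 22 that fell; grey, 157 not past the test). Genes that rose lie at lower GC content (median 38.1%) than genes that fell (median 43.9%).

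Single regions were compared within each sex and stage by counting those called in every cocaine and no control library (gained) and the converse (lost). In diestrus 129 were gained (0.860%, against 0.924% of all autosomal regions) and 214 lost (1.43% against 1.05%). In proestrus 344 were gained (2.29% against 2.00%) and 93 lost (0.620% against 1.36%). In males 220 were gained (1.47% against 1.38%) and 2031 lost (13.5% against 13.8%), where the cocaine libraries also held the fewest peaks. Gains lay near the share over all regions in each stratum, while losses in long genes were above it in diestrus and below it in proestrus, which was not tested. Shorter genes lay between the 2 shares, with losses of 1.23% in diestrus and 0.911% in proestrus. Without diestrus cocaine library 1, diestrus losses came to 6.38% and gains to 1.88% of long-gene regions, and the shares over all regions are not given for this repeat. No long-gene region was called in all cocaine and no control libraries, or the converse.

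Gains in diestrus carried AP-1 in 28 of 129 regions (21.7%) and in proestrus in 61 of 344 (17.7%), and losses in 12 of 214 (5.61%) and 4 of 93 (4.30%). Over all autosomal regions the same shares were 21.7% and 17.3% of gains and 3.40% and 4.21% of losses. In males it was 10 of 220 gains (4.55%, against 4.14% over all regions) and 189 of 2031 losses (9.31% against 10.4%). The 220 male gains had a median GC content of 30.3%, against 39.7% over the long-gene regions. Over all called long-gene regions of a library, the AP-1 share was 10.9 to 11.3% in diestrus controls and 12.6 to 14.3% in diestrus cocaine. It was 11.4 to 11.9% against 12.2 to 12.7% in proestrus, and 11.3 to 11.5% against 13.1% in males. Cocaine libraries were above the controls of their stratum in each case, which is given as a description. The same share over all called autosomal regions of a library is not given, so this does not show a trait of long genes. The AP-1 share also rose with the number of libraries that called a region, from 6.17% to 16.9%. The mean percent of long-gene regions called was lower after cocaine in diestrus (41.9% against 49.0%) and males (27.4% against 52.2%). It was higher in proestrus (47.1% against 38.7%). The part of these call rates in the AP-1 shares was not tested.

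**Figure D5:**
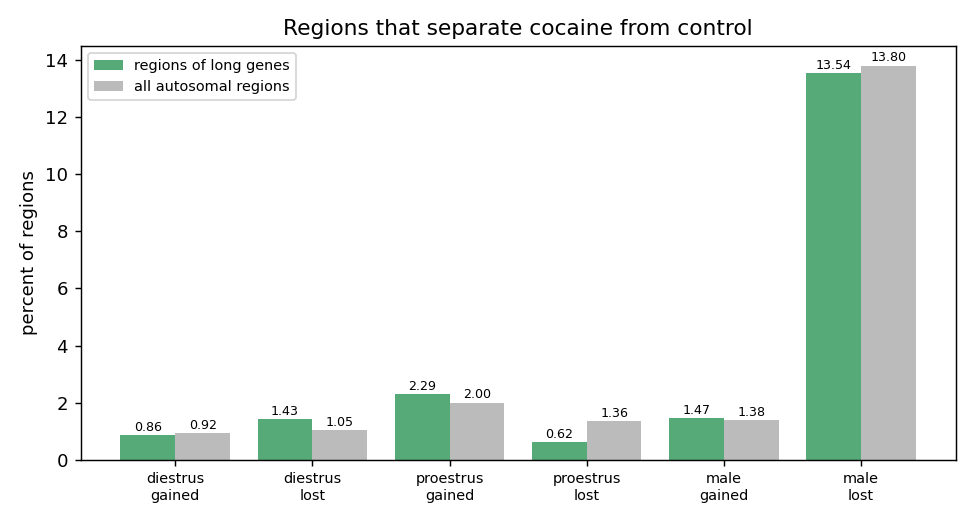
Percent of long-gene regions (green) and of all autosomal regions (grey) called in every cocaine and no control library (gained) or in every control and no cocaine library (lost), by sex and stage. Male losses reach 13.5% and 13.8%, and proestrus losses are 0.620% in long genes against 1.36% over all regions.

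In both female stages 20 regions were gained, 15.5% of the diestrus and 5.81% of the proestrus gains. Of these, 5 held AP-1, in Immp2l, Mctp1, Galntl6, Adarb2 and Cdh18. The Immp2l region (chr12:41949686-41950337) was also called in the 3 male controls, while the regions of Mctp1 (chr13:76461275-76461811) and Cdh18 (chr15:23104928-23105421) were called in the 6 female cocaine libraries alone. Their windows above show 2 AP-1 motifs in Immp2l and Cdh18 and 1 in Mctp1. Losses in both female stages numbered 5, in Csmd1, Cacna2d3, Grm5, Gm20388 and Dlg2, and the region of Grm5 (chr7:87871812-87873367) held AP-1 and the E-box. No region was gained in both diestrus and males, and 61 proestrus gains (17.7%) were among the male losses. For scale, male gains were 1.47% and male losses 13.5% of all long-gene regions. The same overlaps over all autosomal regions are not given, and no overlap was tested.

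By gene, the most diestrus gains were 4 each in Pde4d and Dcc. Proestrus gains were most numerous in Ctnna2, the alpha-catenin of neurons, with 13 of its 131 regions. Male gains were most numerous in Dcc, with 13 of 108, and male losses in the adhesion gene Tenm2, with 39 of 184. Gains and losses were also ranked by mean fold enrichment over all libraries that called the region, those of other strata included. By this rank the strongest diestrus gains lay in Cdh12, Ccser1 and Erbb4, and the strongest losses in Robo1, Dscam and Rasgef1b. In proestrus the strongest gains were in Ptprk, Inpp4b and Adamtsl1, and the strongest losses in Gm37240, Asic2 and Dock1. In males they were in Alk, Erbb4 and Grm8, and the losses in Ctnna3, Astn2 and Thsd7b. The lost Ctnna3 region (chr10:64215303-64216425) had fold enrichments of 6.61 to 8.34 in the 3 male controls and was called in no other library. Most of the others were also called in groups outside their stratum, as the Inpp4b region, which was absent from the 3 proestrus controls and called in the other 14 libraries.

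Between the control groups, 556 regions (3.71%, against 3.29% of all regions) were called in every diestrus and no proestrus control, and 78 (0.520% against 0.649%) the other way. Male against diestrus controls gave 994 (6.63% against 7.44%) and 400 (2.67% against 2.52%), and male against proestrus controls 1245 (8.30% against 8.64%) and 128 (0.854% against 1.18%).

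A test over all 17 libraries took in the 6096 long-gene regions with calls in 4 to 13 of them. None passed an adjusted p of 0.05 (two-sided Fisher's exact test, Benjamini-Hochberg over 65507 regions, background 0%), with a smallest adjusted p of 0.148. At an unadjusted p of 0.05, 229 (3.76%) were called more often after cocaine, against 3.61% of all regions tested. A further 384 (6.30%) were called less often, against 9.02%.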

How the data were processed

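The authors trimmed adapters, used BWA-MEM to align reads to mm10, and ran the MACS2 peak caller library by library; versions and options are not given in the sources used here. The deposited files list for each peak a fold enrichment (a ratio), −log10 p and q values and a score, which the authors computed within a library and did not normalize between libraries. Read counts were not used, so the study's DESeq2 test was not run.

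Here, peaks were merged where they overlapped by 1 bp or more. Genes were taken from GENCODE vM21 and sequences from RefSeq GRCm38.p6. Peaks of a library were assigned to a gene by their summit for shares of peaks. Groups followed the sample titles, including diestrus cocaine library 2, whose stage label is blank. Library tests were two-sided exact permutation tests with labels permuted within diestrus, proestrus and males (4000 assignments, smallest p 0.00025), adjusted over 16 tests by Benjamini-Hochberg. Tests of effects on the percent of regions called and of differences between the female stages were added after seeing the data and adjusted over 11 tests. Calls per gene were tested in the same way over 1285 genes with at least 10 regions. Named genes were the 10 longest, the 5 densest and 5 sparsest, those with 0 regions, at most 6 past the gene test in each direction by size, the gene with the most gained and the most lost regions in each stratum, and the 3 strongest gained and lost regions. Regions shared by both female stages, the regions of Rbfox1, other genes past the test in a role and the strongest regions called in 17 libraries were chosen after their values were seen. The members and gene lists were chosen with earlier results of these data known. Weighting to the same GC content over 10 bins was listed among the alternatives at the start. Its own alternatives, the gene test at expected GC content and the tests without a stratum were added after seeing the data. Intervals of identical position made up at most 0.0700% of any pair of libraries. The gene test was tested on simulated data. Python 3.11.15, numpy 2.4.6, scipy 1.17.1, pandas 2.3.3 and matplotlib 3.10.9 were used. A marker of the cortical excitatory list is not reported here.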

Additional observations from a re-analysis of the deposited data

Results flagged for a closer look

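The effect of cocaine on the percent of long-gene regions called differed between males and females by -25.4 percentage points (exact permutation test, p = 0.00255, adjusted p = 0.0281 over 11 tests, added after seeing the data). The percent called fell from 52.2% ± 1.53 (SD, n = 3) in male controls to 27.4% ± 3.27 (n = 2) in male cocaine. The percent of shorter-gene regions called fell as well, from a mean of 54.6% to 27.7%. For long minus shorter genes the effect differed between the sexes by 2.18 points (exact permutation p = 0.309, adjusted p = 0.549 over 16 tests). The fall in males is therefore not particular to long genes. The male cocaine libraries also held the fewest peaks of all, 74532 and 86626. With the same number of strongest peaks in every library, the sex difference in the percent of long-gene regions called was -9.91 points. Without diestrus cocaine library 1 that sex difference was -24.6 points.

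The effect of cocaine on the share of peaks in long genes differed between diestrus and proestrus by -1.50 percentage points (exact permutation p = 0.02), which did not pass the adjustment (exact permutation, adjusted p = 0.11). The percent of long-gene regions called differed between the stages by -15.4 points in the same way (exact permutation p = 0.045, adjusted p = 0.157). Without diestrus cocaine library 1 these were -1.36 points (exact permutation p = 0.04) and -20.6 points (exact permutation p = 0.01). The difference in the percent called had an exact permutation p of 0.05 or more in 10 of 17 repeats without 1 library, reaching 0.125 without diestrus cocaine library 3 (-12.0 points). Proestrus cocaine libraries lay above their controls in both measures. From control to cocaine, the mean percent of shorter-gene regions called went from 49.9% to 44.5% in diestrus and from 40.8% to 47.6% in proestrus. For long minus shorter genes the effect differed between the stages by -3.19 points (exact permutation p = 0.19, adjusted p = 0.232 over 11 tests).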

How the results depend on the processing

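Results in this section are differences of cocaine minus control unless a control comparison is named. Percents of gained, lost or separating regions are of long-gene regions alone, without the share over all regions, and do not show a trait of long genes. Of 394 alternative values of the 16 planned library tests, 357 kept their direction and their side of the threshold, and 2 passed an adjusted p of 0.05, both with shorter genes weighted to the same GC content. That weighting gave -2.12 points over all strata, -2.33 in females, -2.20 in proestrus and -1.71 in males for the call rate relative to shorter genes, and -2.12 kept its side of the threshold under all 25 of its own alternatives, with a range of -1.96 to -2.39 without 1 library. The female value ranged from -2.70 to -2.12 without 1 library, and was -1.84 with the same number of strongest peaks and -1.69 without the regions of Rbfox1, neither past the test.

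With a −log10 q of at least 5, the share of peaks over all strata was -0.234, the stage difference in the percent of long-gene regions called -13.7 (exact permutation p = 0.12), and the call rate relative to shorter genes was 0.567 in females, -0.0102 in males and -0.577 for the difference between the sexes. Proestrus losses were then 0.384% of long-gene regions, male gains 0.564%, regions of male but no diestrus controls 10.4% and of proestrus but no male controls 0.360%. In the gene test 7 long genes were then higher and 12 lower of 191, beside 53 of 842 genes in all. With the same number of strongest peaks in every library (74532), the share of peaks was 0.0501 in diestrus and 0.245 in males, and its diestrus minus proestrus effect was -0.695 (exact permutation p = 0.055). The relative call rate was then 0.924 in females, 0.631 in diestrus and -0.397 for diestrus against proestrus controls. Diestrus gains were then 1.42%, male gains 4.81%, male losses 8.55%, regions of proestrus but no diestrus controls 0.781% and of proestrus but no male controls 1.54%. In the gene test 47 of 192 long genes then passed, 13 of them lower, beside 134 of 805 genes in all.

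Gene bodies of at least 300 kb gave a relative call rate of 0.865 in females. Bodies of at least 1 Mb gave -0.0122 for the share and -0.0562 for the relative call rate over all strata. More than 50 kb from a TSS gave -0.450 over all strata and -0.129 in proestrus, and shorter genes of 200 kb to under 500 kb gave -0.290 and -0.272. Peaks that cover 50% of a region gave 0.327 in females, and regions called in 2 or more libraries of 1 group gave 0.240.

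Unscaled counts of called regions left 0 long genes past the test in either direction. At an unadjusted exact permutation p under 0.05 there were 52 of 209, beside 359 of 1285 genes in all. Of the 52 long genes past the main test, 51 kept their sign. The female strata alone gave 12 higher and 9 lower of 209 long genes, beside 133 of 1285 genes in all. Diestrus with males and proestrus with males gave 0 each, also over all genes, where 200 assignments allow few calls. At an unadjusted exact permutation p under 0.05 these had 70 and 66 long genes, beside 316 and 327 of 1285 genes in all. Of 312 alternative values of the 12 genes named by size, 312 kept their sign and 192 passed the test. Over the alternatives of a gene, the highest adjusted p ran from 0.0931 in Csmd1 to 0.378 in Ctnna3 (exact permutation tests). It was 0.220 in Dcc, 0.266 in Mctp1, 0.192 in Cacna2d3, 0.274 in Dlgap2 and 0.248 in Gm20388. Dlgap2 passed in 4 and Gm20388 in 6 of 26 alternatives, the fewest of the 12 genes.

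Leaving out 1 library at a time gave these ranges. The stage difference in the percent called was -20.6 to -12.0. The share of peaks was -0.0407 to 0.165 over all strata and -0.0644 to 0.284 for male against female controls. The relative call rate was -0.463 to 0.782 in females and -2.56 to 0.00784 in diestrus. Diestrus gains were 0.862 to 1.96% and losses 1.43 to 6.38%, proestrus gains 2.32 to 6.26% and losses 0.624 to 1.83%, and male gains 1.47 to 2.92%. Regions of diestrus but no proestrus controls were 3.75 to 6.61%, of proestrus but no diestrus controls 0.518 to 1.54%, of diestrus but no male controls 2.69 to 5.49% and of proestrus but no male controls 0.864 to 2.32%. Higher long genes numbered 12 to 43 and lower ones 4 to 24, both lowest without diestrus control library 2 and highest without diestrus cocaine library 1. Over all genes these repeats gave 67 of 1279 and 316 of 1257.

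The replicate numbers did not pair the libraries, since the deviations of same-numbered libraries from their group means correlated by -0.0212 to 0.0424 over 7 pairs. With the replicate block the share of peaks differed by -0.0930 and the relative call rate by -0.0270 over all strata. The causes of these changes were not tested.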

Other observations

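Peak calls give no reads. A gene's count of called regions can move with the depth and GC content of a library, and the part of depth was not tested. The male cocaine group has 2 libraries. The Slc17a7 promoter peak followed treatment in these libraries and was not separated from it. Nested genes share regions, and 48 region and gene pairs were counted in more than 1 long gene.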
